A study of Homo sapiens with 5 samples.

Results

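Host mouse astrocytes were captured together with human brain organoids that had been grafted into the mouse brain. They were 190 of the 4961 host cells in 4 graft libraries, and 150 of the 190 came from a single library, PFC_4MPT. A host cell was a barcode with over 500 mouse UMIs (unique molecular identifiers, each a counted transcript) and under 20% human UMIs. A host astrocyte was a host cell with UMIs of at least 3 of 6 astrocyte markers (Aqp4, Gja1, Ntsr2, Slc1a2, Atp1b2, Slc7a10) and none of Cldn5 or Pdgfra. The 6 markers chose the cells, so their levels, and every other gene of the cells so chosen set against the rest, are given as a description and were not tested.

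The organoids were made from the human embryonic stem cell line H9, which carried ChR2-EYFP, and had been cultured for 42 days when they were placed in the prefrontal cortex (PFC) or the hippocampus (HIP) of SCID-Beige mice, an immunodeficient strain. The labels give the genotype of the samples as WT. Grafts were dissected by their EYFP fluorescence at 2 or 4 months post transplantation (MPT), which gave the libraries HIP_2MPT, PFC_2MPT, HIP_4MPT and PFC_4MPT, 1 for each condition. The study used more grafted mice than libraries and the labels do not tie cells to a mouse, so the spread between mice is not known. Host cells were those that came along with the dissected tissue. The 4 libraries held 40966 barcodes, and their totals ranged from 14286046 UMIs in HIP_2MPT to 33907594 in HIP_4MPT. The study's methods give the mice as several weeks old when they were divided into groups, and their sex was not given in the labels.

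Astrocytes are the glial cells that clear glutamate and potassium from around synapses, carry water at their endfeet on blood vessels, and pass lactate and lipoprotein-bound cholesterol to neurons. They are coupled to each other by gap junctions made of connexins. Astrocytes keep genes that mark the brain region in which they arose, and after injury or inflammation they turn on filament genes such as Gfap and Vim, a state called reactive.

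The share of host cells that were astrocytes differed between PFC_4MPT and the other libraries by more than its counting error. Host astrocytes were 150 of 1202 host cells in PFC_4MPT, a share of 12.5% with an exact 95% binomial interval of 10.7 to 14.5%. They were 19 of 772 in PFC_2MPT (2.46%, 1.49 to 3.82%), 18 of 2071 in HIP_4MPT (0.869%, 0.516 to 1.37%) and 3 of 916 in HIP_2MPT (0.328%, 0.0676 to 0.954%). The intervals of the 2 HIP libraries overlapped. Both PFC libraries therefore lay above both HIP libraries, and within each site the library of 4 months lay above that of 2 months. The mean share was 7.47% ± 7.08 (SD, n = 2 libraries) in PFC and 0.598% ± 0.383 (SD, n = 2) in HIP. The 2 libraries of a site differ in stage, so this SD holds the stage difference and is not a spread between replicates. An exact two-sided permutation test over the 4 libraries gave p = 0.333 for site, which is the smallest p that 2 against 2 libraries allow, and p = 0.667 for stage. Paired by site, the later library was higher by 0.542 percentage points in HIP and by 10.0 in PFC. The HIP difference rested on 3 and 18 cells and was 0.0441 points when membership came from clusters made without the 8 genes. Paired by stage, PFC was higher than HIP by 2.13 points at 2 months and by 11.6 at 4 months. An exact two-sided test by sign flips within the pairs gave p = 0.5 for each, the smallest that 2 pairs allow. Most of the mean stage difference of 5.28 points came from PFC_4MPT. When 2 of the 6 markers sufficed, HIP_4MPT stood at 4.64% and PFC_2MPT at 4.53%, so both PFC libraries no longer lay above both HIP libraries, while both paired orders were kept. The 88 host cells of HIP_4MPT with exactly 2 markers, counted before those with Cldn5 or Pdgfra were left out, had a median of 18714 UMIs and 210 CPM of 16 astrocyte genes outside the rule (described next), against 15766 CPM in the host astrocytes of that library and 1274 CPM in its host cells with none of the 6 markers. How much host tissue was taken with a graft, and which tissue, cannot be told apart from the site and the stage in these shares.

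The label was checked against 16 astrocyte genes that the rule did not use, among them Aldh1l1, Aldoc, Slc1a3, Sox9, Fgfr3 and Mlc1. In PFC_4MPT their summed level was 14538 CPM (the UMIs of the genes summed over the cells and scaled to 1000000 mouse UMIs in all; 95% Poisson interval 14121 to 14964) in host astrocytes and 1763 CPM in the other 1052 host cells. The mouse UMIs of human barcodes (over 80% human UMIs), which can come from free RNA or from mixed droplets, gave 1810 CPM in that library. Between neighbours at the threshold, the 18 cells with exactly 3 of the 6 markers stood at 8502 CPM and the 40 cells with exactly 2, with or without Cldn5 or Pdgfra, at 3546 CPM, while cells with 0 or 1 marker were at 1602 and 1644 CPM. A further 12 cells of PFC_4MPT with 3 or more markers carried Cldn5 or Pdgfra, the marker genes of endothelium and of oligodendrocyte progenitors, and stood at 7400 CPM. When all host cells were clustered without the 8 genes of the rule, 180 of the 190 host astrocytes lay in the 3 clusters where over 90% of cells had at least 3 of the 16 genes, and 82.6% of the cells in those clusters were host astrocytes by the rule.

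**Figure D1:**
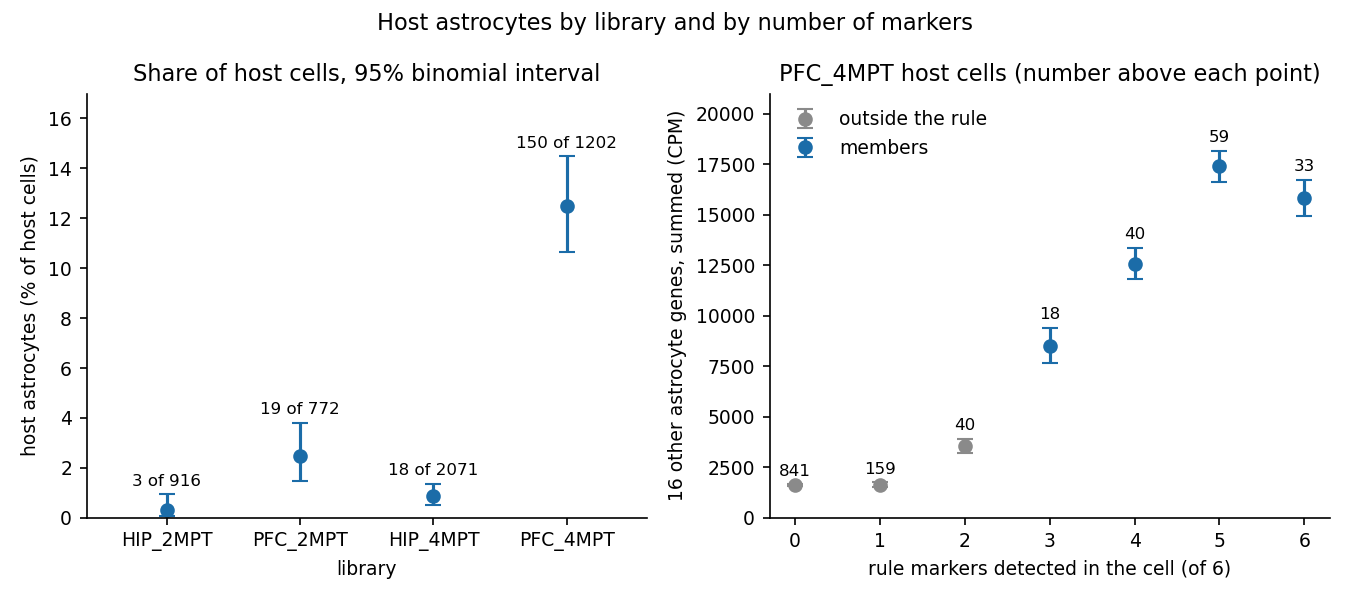
The left panel plots host astrocytes as a percentage of host cells in each library with exact 95% binomial intervals and cell numbers, and PFC_4MPT stands highest at 12.5%. The right panel plots the summed CPM of 16 astrocyte genes outside the rule in PFC_4MPT host cells, by rule markers detected (95% Poisson intervals). That level climbs from 1602 CPM at 0 markers to 17391 CPM at 5 and is lower again at 6, at 15825.5 CPM.

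A few members went against their label, and their values are given here first. In HIP_4MPT a single cell of 10091 UMIs with exactly 3 markers carried 5792 of the 5982 UMIs of Ttr, the transthyretin gene of choroid plexus, and only 1 UMI of the 16 astrocyte genes. It clustered with choroid plexus cells, of which that library held 409. The other 17 host astrocytes of HIP_4MPT held 190 Ttr UMIs among them. In PFC_2MPT, 6 of the 19 host astrocytes fell in a cluster of 64 cells, 61 of them from that library, with a median of 725 UMIs and led by Nrgn, Bc1 and mitochondrial genes. The 3 host astrocytes of HIP_2MPT held only 3972 UMIs together, of which 51 were of the 10 microglial markers, so that library is left out of the gene values below. In PFC_4MPT 2 host astrocytes fell in a cluster of 7 cells led by Tmem212, a gene of ependyma, the ciliated lining of the ventricles, with S100a6 and Vim also among its leading genes. Barcode sequences shared between pairs of libraries numbered 169, of which 2 belonged to host astrocytes and none to a host astrocyte in both libraries.

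Host astrocytes of PFC_4MPT held a median of 1958 mouse UMIs and 1039 genes against 2532.5 UMIs and 1160 genes in the other host cells. Their median mitochondrial share was 9.36% against 7.21%, and 11.4% against 9.13% of their UMIs were human. The mean human barcode of that library held 137 mouse UMIs, which equals 6.50% of the mean UMIs of a host astrocyte. All 10 microglial markers had UMIs in the 150 host astrocytes, 260 in all (822 CPM, with C1qa the most abundant), against 18052 CPM in the other host cells and 4310 CPM in human barcodes. All 9 oligodendrocyte markers had UMIs too, 341 in all (1077 CPM). At least 2 markers of microglia, oligodendrocytes, choroid plexus or neurons were detected in 38 of the 150 cells. The ependyma list, by contrast, was higher in host astrocytes, at 117 UMIs (370 CPM) against 80.5 CPM in the other host cells, with all 4 of its measured genes at least 2-fold higher. Its most abundant gene was Rarres2, with 64 UMIs in 43 cells, and Hdc had none. All 27 UMIs of Tmem212, 12 of Ccdc153 and 11 of Dynlrb2 lay in the 2 cells of the Tmem212-led cluster, and without these cells only Rarres2 was higher, at 171 CPM. Leaving out those 38 cells turned the median log2 ratio of the pan-reactive list described below from -0.09 to 0.10, and it changed the sign of none of the other 20 lists for which it was recomputed. Subtracting the mouse profile of human barcodes changed the sign of none of the 21.

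Against the other host cells of PFC_4MPT, 17.4% of the 10901 genes with 20 or more UMIs stood at least 2-fold higher in host astrocytes and 25.4% at least 2-fold lower, with a median log2 ratio of -0.08 over all genes. The counts that follow are to be read beside these shares and not as tests. Of the 9 genes for the transport and turnover of glutamate, GABA and amino acids, 7 were at least 2-fold higher and none lower (median log2 ratio 3.40). Slc1a3, a glutamate transporter, had 2503 CPM (2331 to 2683) in host astrocytes and 166 CPM in the other host cells. The GABA transporter gene Slc6a11 had 1043 CPM (933 to 1162) against 13.9 CPM, a ratio of 75.2. Glul, which makes glutamine from glutamate, had 2142 CPM against 1080 CPM, a ratio of 1.98, since microglia stood at 1573 CPM and oligodendrocytes at 1050 CPM. The astrocyte group was thus set apart more by glutamate and GABA uptake genes than by glutamine synthetase.

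Of 9 measured genes for potassium, water, ions and junctions, 7 were higher and 1 lower. The bicarbonate cotransporter Slc4a4 had 954 CPM against 17.3 CPM, Mlc1 913 CPM against 15.3 CPM, and the connexin gene Gjb6 869 CPM against 11.1 CPM. Car2, a carbonic anhydrase, was the lower gene at 284 CPM against 793 CPM, with 3230 CPM in oligodendrocytes. The 2 other genes of coupling and water, Gja1 and Aqp4, belonged to the rule. They were detected in 142 and 70 of the 150 host astrocytes, so the water channel gene itself was not seen in most cells at this depth.

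Genes of secreted proteins were among the most abundant. Cst3, the protease inhibitor cystatin C, had 40808 CPM in host astrocytes, but the other host cells held 44664 CPM and microglia 88681 CPM. Apoe, which encodes the main apolipoprotein of the brain, had 18093 CPM (17627 to 18568) against 6416 CPM, and microglia again held 11141 CPM. Clu, which encodes clusterin, had 7448 CPM (7150 to 7754) against 176 CPM, a ratio of 42.4. Microglia held 28.0 CPM of Clu, so clusterin set host astrocytes apart from microglia more than Apoe did. Of 14 genes for apolipoproteins and other secreted proteins 10 were at least 2-fold higher and 2 lower, the lower ones being Ctsd and Ctsb, lysosomal proteases. Of 10 synaptogenic and matrix genes 8 were higher and none lower, among them Sparcl1 at 3116 CPM and Gpc5 at 1261 CPM. Gpc5 was as abundant in oligodendrocyte progenitors, at 1271 CPM.

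All 3 metallothionein genes were higher, Mt1 at 16295 CPM against 2239 CPM, Mt3 at 9770 CPM against 390 CPM and Mt2 at 1890 CPM against 94.3 CPM. These encode small zinc and copper binding proteins. Among 18 genes of glycolysis and lactate, 9 were higher and none lower (median log2 ratio 1.03), led by Aldoc at 4474 CPM (4244 to 4713) against 121 CPM, while Gapdh stood at 2825 CPM against 1221 CPM. Of 16 measured genes of cholesterol synthesis and export, 11 were higher and 1 lower. Msmo1, a sterol oxidase of the pathway, had 648 CPM against 86.7 CPM, and the lower gene was the exporter Abcg1. Among 21 transcription factors of astrocytes and neural stem cells 12 were higher and 2 lower, with Id4 at 427 CPM against 23.2 CPM and Sox9 at 218 CPM against 17 CPM. The summed level of these factors was 4626 CPM in host astrocytes, 5110 CPM in endothelium and 4304 CPM in neuroblasts, and the counting interval of host astrocytes overlapped each of the others. Against neuroblasts 9 of 18 measured factors were higher, where 29% of all genes tested were, and 4 were lower, where 25.3% were.

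The 15 genes with the highest ratio to other host cells, among those with at least 100 UMIs in host astrocytes and outside the rule, were Agt, Gjb6, Slc6a11, Gabrb1, Mlc1, Cldn10, Slc4a4, Itih3, Slc39a12, Acsbg1, Tlcd1, Clu, Fgfr3, Aldoc and Slc25a18. Agt, which encodes angiotensinogen, led with a ratio of 93.1 (743 CPM against 7.98 CPM). All 15 had UMIs in the 18 host astrocytes of HIP_4MPT and all were at least 2-fold above its other host cells, with a median ratio of 280.5, where 28.7% of all genes tested were that much higher. In PFC_2MPT 14 of the 15 were so, with a median ratio of 93.4, where 22.2% of all genes tested were. The exception was Agt, which had no UMI in the 19 host astrocytes of PFC_2MPT.

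**Figure D2:**
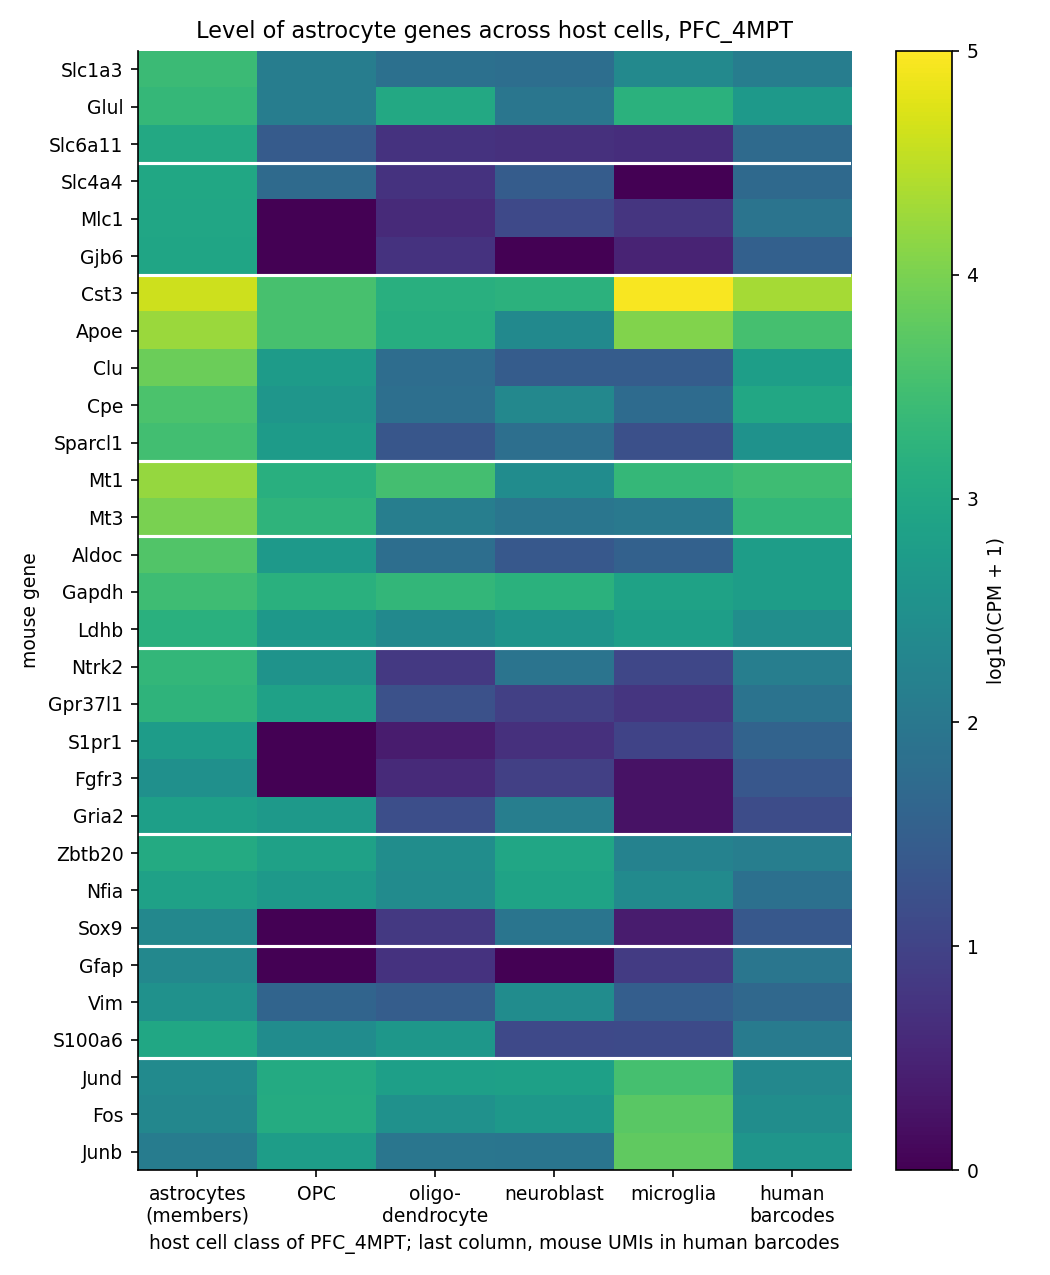
The heat map plots log10(CPM + 1) of 30 mouse genes, grouped by role, in 5 classes of PFC_4MPT host cells and, in the last column, in the mouse UMIs of human barcodes. Transport, junction and receptor genes are highest in the astrocyte column, Cst3 is highest in microglia, and the early genes Jund, Fos and Junb are lower in astrocytes than in microglia or oligodendrocyte progenitors (OPC).

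Receptors formed a further group. Of 13 receptors for growth factors and lipids 12 were higher and none lower. Ntrk2, the receptor of BDNF, had 2013 CPM against 61.4 CPM, Gpr37l1 had 1804 CPM against 69.4 CPM, and S1pr1, a sphingosine 1-phosphate receptor, had 575 CPM against 35.7 CPM. Of 11 receptors for glutamate, GABA and purines 9 were higher and 1 lower, led by Gria2 at 651 CPM against 57.6 CPM, then Grm3 at 212 CPM and Grin2c at 161 CPM. Oligodendrocyte progenitors held 1298 CPM of this list against 1719 CPM in host astrocytes, and against them 5 of 10 measured genes were higher, where 17.4% of all genes tested were, and 1 was lower. Since the study asked about dopamine and acetylcholine reaching grafted astrocytes, the genes of these transmitters and of noradrenaline were read in the host astrocytes as well. None of the 5 dopamine receptor genes, the 5 muscarinic receptor genes or Chrna4 and Chrna7 had a UMI in 316481 UMIs of host astrocytes of PFC_4MPT, where 3 UMIs, taken as the limit that a count of 0 allows, would equal 9.48 CPM. After the mouse profile of human barcodes was subtracted, all of these genes stood under that limit in the other host cells too. Chrm3 was the highest there at 1.10 CPM, so these zeros do not set host astrocytes apart. The monoamine oxidases were present, with Maob at 53.7 CPM in 15 cells and Maoa at 34.8 CPM in 11 cells. Maob was higher than in the other host cells, at 4.51 CPM. Noradrenaline receptors were sparse, with 6 UMIs of Adrb1, 4 of Adra2a and 3 of Adra1a, and Ache and Chrnb2 had 1 UMI each. Slc22a3 and Adra1b also had none.

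Reactive genes were mixed. Of 10 measured pan-reactive genes 3 were higher than in other host cells, 3 were lower and the median log2 ratio was -0.09. That median was 0.47 for host astrocytes without an Agt UMI alone and -2.18 for those with one, a split described below. It was -0.75 when 50 UMIs were required. S100a6 was the most abundant at 964 CPM but was detected in only 60 of 150 cells, and 95 of its UMIs lay in the 2 cells of the Tmem212-led cluster. Without those cells S100a6 stood at 679 CPM, Vim at 262 CPM and Gfap at 200.4 CPM, the counts higher and lower were again 3 and 3, and the median log2 ratio was -0.54. Vim had 341 CPM (280 to 412) in 47 cells and Gfap 218 CPM (170 to 276) in 29 cells, against 1.62% of other host cells with a Gfap UMI and 92.6 CPM in the mouse UMIs of human barcodes. Lcn2, Timp1, Steap4 and Cxcl10 had no UMI. Of 8 measured genes of the set called A1, 6 were lower and 1 higher, and C3, its usual marker, had no UMI. With the mouse profile of human barcodes subtracted, the other host cells held 0.365 CPM of C3 and 3.65 CPM of Lcn2. They held 1.83 CPM of Timp1 and 0.730 CPM of Steap4. All of these lie under the 9.48 CPM that 3 UMIs equal in host astrocytes, so these zeros do not set host astrocytes apart. Cxcl10 stood at 77.7 CPM in the other host cells. Of 5 measured genes of the set called A2, 4 were lower and none higher. Of 8 genes of MHC class I presentation 5 were lower and 1, Tap2, was higher at 63.2 CPM against 20.1 CPM. H2-D1 had 310 CPM against 1207 CPM and B2m 117 CPM against 669 CPM. Microglia held 1980 and 1226 CPM of H2-D1 and B2m, and against the oligodendrocyte class, which held less of both, the median log2 ratio of the MHC class I list was 1.76 over the 4 genes measured rather than -1.67. The A1 list likewise had median log2 ratios of 0.91, 0.96 and 3.94 against oligodendrocytes, oligodendrocyte progenitors and neuroblasts, over 3 genes measured, and -2.76 against microglia. The pan-reactive list had medians of 1.12, 2.45 and 4.12 against the first 3 of these classes, and the A2 list, over 2 genes measured, had 1.28, 2.90 and -0.65. The direction of these lists therefore depended on the class compared.

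Immediate early and dissociation genes, which are induced within minutes in stimulated or stressed cells, were low. All 12 stood at least 2-fold lower than in other host cells, with a median log2 ratio of -4.34 and a summed level of 989 CPM against 16938 CPM. Fos had 209 CPM in 20 of 150 cells against 2879 CPM, and Junb 123 CPM against 3150 CPM. Microglia held much of the difference, at 31584 CPM, and all 12 genes were lower in host astrocytes than in that class, where 23.8% of all genes tested were. Against oligodendrocyte progenitors 8 of 9 measured genes were lower, where 20.3% of all genes tested were. The summed level was 4158 CPM in oligodendrocyte progenitors, 2373 CPM in neuroblasts and 1393 CPM in oligodendrocytes, and the median log2 ratio of the list was -2.19, -1.16 and 0.37 against these classes. Human barcodes held 1824 CPM, above the level of host astrocytes. Host astrocytes of PFC_2MPT and HIP_4MPT were also low, at 3 and 16 UMIs of the 12 genes (120 and 352 CPM). Of 9 heat shock genes 6 were lower and none higher. Cell cycle genes had 25 UMIs in all, 18 of them of Pcna, and Mki67, Top2a and Cdk1 had none.

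The host astrocytes of PFC_4MPT were not uniform. Agt was detected in 55 of the 150 cells and absent from 95, and cells with it held up to 13 UMIs with a median of 3. A share of 36.7% of host astrocytes thus carried Agt, against 0.199% of microglia (1 of 503) and 0.951% of all other host cells. Cells with and without Agt had like depths, at medians of 2050 and 1949 UMIs, and median mitochondrial shares of 10.3% and 8.94%. The split was made after the values had been seen and is described without a test. Of the genes with 20 or more UMIs in these cells 6.87% were at least 2-fold higher in the Agt-positive cells and 10.7% at least 2-fold lower.

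Agt is known as a gene of astrocytes outside the telencephalon, whereas Lhx2 and Emx2 are patterning genes of the telencephalon, which includes both cortex and hippocampus. They stood with Hopx on a list of 6 telencephalic genes. In Agt-positive cells this telencephalic list held 7 UMIs in 110759, and in Agt-negative cells 165 in 205722, or 63.2 against 802 CPM. Only 4 of 55 Agt-positive cells (7.27%, exact 95% binomial interval 2.02 to 17.6%) had any UMI of the list, against 71 of 95 Agt-negative cells (74.7%, 64.8 to 83.1%). Lhx2 had 1 UMI in Agt-positive and 53 in Agt-negative cells, Emx2 had 0 and 8, and Hopx had 6 and 77. With Hopx left off the list, 1 of the 55 and 54 of the 95 cells had a UMI of it. Of the other genes on the non-telencephalic list, Irx1, Irx2, Irx3 and Irx5 gave 11 UMIs in Agt-positive and 1 in Agt-negative cells. Pax3, En1, En2, Hoxb3 and Hoxa5, genes of the midbrain, hindbrain and spinal cord, had none in either, and neither did Tal1, also on the list. After every cell was thinned to 500 UMIs, none of the 40 cells with Agt and 36 of the 110 without it (32.7%) had a telencephalic UMI.

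**Figure D3:**
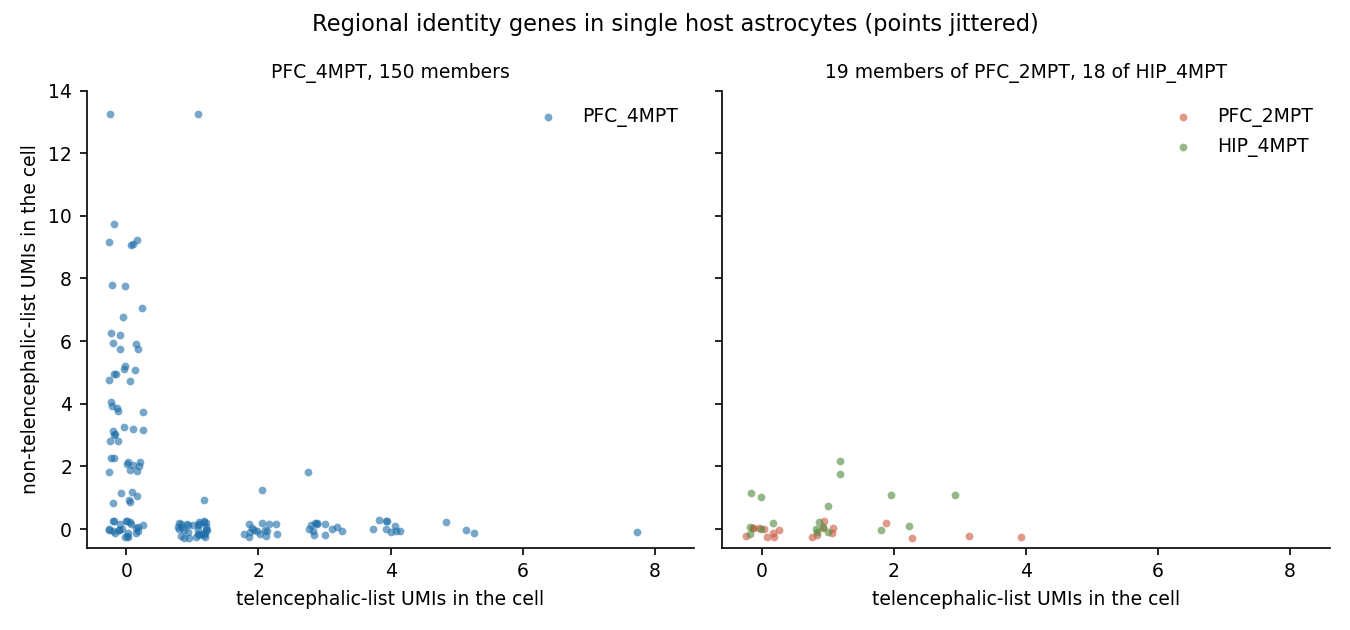
Each point is a host astrocyte, placed by its UMIs of the telencephalic list (Lhx2, Emx2, Hopx and other genes) and of the non-telencephalic list (Agt, Irx and other genes), with jitter. In PFC_4MPT (left) only 4 of 150 cells have UMIs of both lists, and cells of PFC_2MPT (right) have none of the non-telencephalic list. In HIP_4MPT (right) 5 of 18 cells have UMIs of both lists. A cell of PFC_4MPT with 10 telencephalic UMIs lies beyond the axis and is not shown.

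The same pattern was read in barcodes that the rule had left out. In PFC_4MPT 94 barcodes of mixed species, with 20 to 80% human UMIs, had 3 or more of the 6 markers. Agt was detected in 27 of them, of which 2 (7.41%, 0.910 to 24.3%) had a telencephalic UMI, against 31 of the 67 without Agt (46.3%, 34.0 to 58.9%). These barcodes came from the same library and are not a replicate of it. Among the other host cells of PFC_4MPT, neuroblasts had telencephalic UMIs in 33 of 76 cells and no non-telencephalic UMI, whereas oligodendrocyte progenitors had telencephalic UMIs in 10 of 49 cells and non-telencephalic UMIs in 13 of 49. Those were 15 UMIs of Irx genes and 1 of En1, and Agt had none there. UMIs of both lists lay in the same cell in 3 of the 49 oligodendrocyte progenitors, 3 of 41 endothelial cells and 1 of 503 microglia. Classes of host cells other than astrocytes in this library thus also held genes of both lists. From which part of the brain the cells were taken was not tested.

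Other genes differed with Agt. Slc6a11 had 2221 CPM (1952 to 2517) in Agt-positive and 408 CPM (326 to 506) in Agt-negative cells, a ratio of 5.44. Sparc, a secreted matrix protein, had 2691 CPM against 316 CPM, a ratio of 8.52, and microglia held 1667 CPM of it. The potassium channel gene Kcnd2 had 1138 CPM against 102 CPM, a ratio of 11.1, the glutamate receptor gene Gria1 had 361 CPM against 38.9 CPM, and the GABA-B receptor gene Gabbr2 had 41 against 3 UMIs. Among junction and ion genes 4 of 8 measured were at least 2-fold higher in Agt-positive cells and none lower. Aqp4 was higher as well, at 641 CPM (501 to 809) against 277 CPM (210 to 359), while the glutamate transporter Slc1a2 was lower at 2347 CPM against 4244 CPM.

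In the other direction, Cspg5, a proteoglycan gene, had 1653 CPM (1482 to 1838) in Agt-negative and 298 CPM (205 to 418) in Agt-positive cells, a ratio of 5.55, and oligodendrocyte progenitors held 1993 CPM. Slco1c1, a thyroid hormone transporter, had 389 CPM against 72.2 CPM, and Dio2, which activates thyroid hormone, had 39 against 4 UMIs. Nrg1 had 52 against 1 UMI, and Id4 had 564 CPM against 172 CPM. Gfap stood at 272 CPM (206 to 353) against 117 CPM (62.5 to 201), intervals that do not overlap but rest on 22 and 7 cells. Aldoc (4632 and 4389 CPM) and Clu (7783 and 7267 CPM) were alike in level in Agt-positive and Agt-negative cells, and their Poisson intervals overlapped. Neuronal markers had 59 UMIs in Agt-negative cells and none in Agt-positive ones, Meg3 being the most abundant, while microglial markers stood at 700 and 1047 CPM and oligodendrocyte markers at 1215 and 822 CPM in Agt-negative and Agt-positive cells. The part of these other markers in the differences was not tested.

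**Figure D4:**
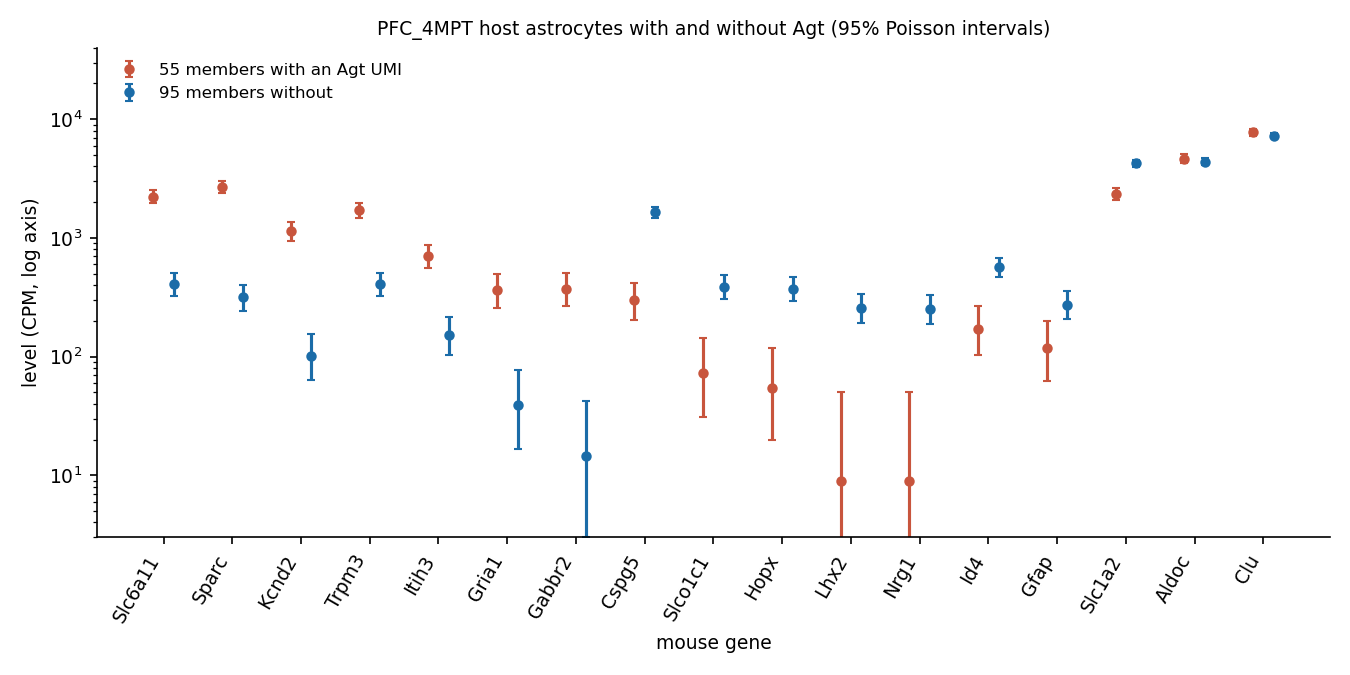
CPM on a log axis of 17 genes in PFC_4MPT host astrocytes with an Agt UMI (55 cells) and without (95 cells), with 95% Poisson intervals. Slc6a11, Sparc, Kcnd2, Trpm3, Itih3, Gria1 and Gabbr2 are higher with Agt, the genes from Cspg5 to Slc1a2 are lower, and Aldoc and Clu lie together. Slc1a2 is a gene of the rule.

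The other libraries gave too few host astrocytes for a comparison, since 20 had been set as the minimum for one, and their values are put side by side. In HIP_4MPT 7 of 18 cells had Agt, with 9 UMIs in all and at most 2 in a cell, and 5 of these 7 also had a telencephalic UMI. In PFC_2MPT none of 19 cells had Agt and 10 had a telencephalic UMI. The pattern in which Agt and the telencephalic genes kept to separate cells was therefore seen in PFC_4MPT, and the few Agt cells of HIP_4MPT did not show it. Gfap had 71 UMIs in 12 of 18 cells of HIP_4MPT (1561 CPM, 1219 to 1969), 69 UMIs in 29 of 150 cells of PFC_4MPT (218 CPM) and 3 UMIs in 3 of 19 cells of PFC_2MPT (120 CPM, 24.7 to 349). Slc1a2, a gene of the rule, had 8048 CPM in HIP_4MPT, 3580 CPM in PFC_4MPT and 2631 CPM in PFC_2MPT. Aqp4 was detected in 9 of 18, 70 of 150 and 2 of 19 cells, at 968, 404 and 79.7 CPM. Aldoc had 2485 CPM in HIP_4MPT, 4474 CPM in PFC_4MPT and 4863 CPM in PFC_2MPT.

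Without the choroid plexus cell the 17 host astrocytes of HIP_4MPT gave 2006 CPM of Gfap, 10258 CPM of Slc1a2 and 3193 CPM of Aldoc. Without the 6 cells of the low-depth cluster the 13 host astrocytes of PFC_2MPT gave 151 CPM of Gfap, 2623 CPM of Slc1a2 and 4842 CPM of Aldoc. The order of the 3 libraries in each of these genes was the same with and without those cells. Apoe had 13911 CPM in PFC_2MPT, 15964 CPM in HIP_4MPT and 18093 CPM in PFC_4MPT, and Mt1 had 18296, 20340 and 16295 CPM. Without the choroid plexus cell HIP_4MPT stood at 19584 CPM of Apoe and 26140 CPM of Mt1, the highest of the 3 libraries in both. With 1 library per condition none of these differences could be tested, and Poisson intervals cover counting error only.

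**Figure D5:**
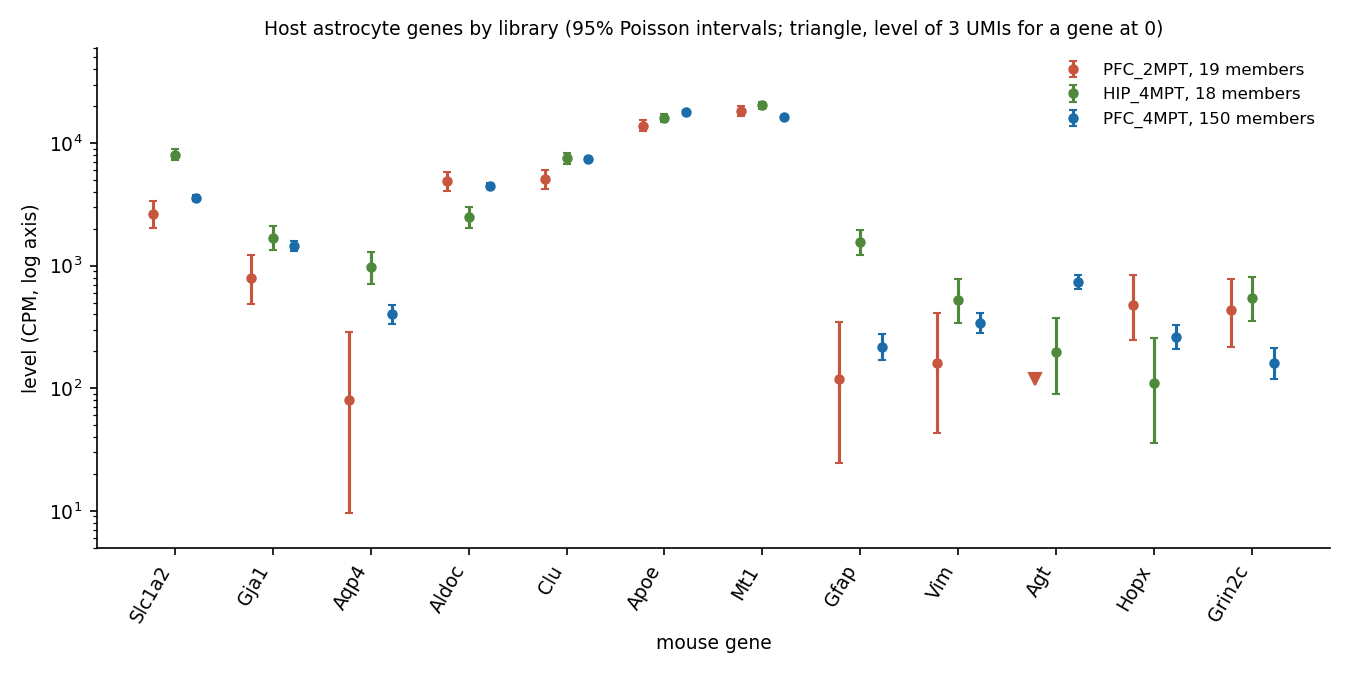
CPM on a log axis of 12 genes in host astrocytes of PFC_2MPT (19 cells), HIP_4MPT (18) and PFC_4MPT (150), with 95% Poisson intervals and, for Agt at 0 UMIs in PFC_2MPT, the level of 3 UMIs (119.6 CPM). Gfap and Slc1a2 are highest in HIP_4MPT and Agt in PFC_4MPT, while Apoe and Mt1 differ less between the libraries than these genes do.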

How the data were processed

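The authors deposited UMI counts per gene and barcode from 10x Genomics 3′ V3 libraries, counted with Cell Ranger on a joint human and mouse reference without normalization. The submitters' processing notes name Cell Ranger 3.1, and the headers of the deposited matrices name 5.0.0. The mouse genes carry the prefix mm10, whereas the methods name a later mouse build, so no coordinates are given. Whether intronic reads were counted is not given in the sources used here. The matrices with the human reference alone and the day 42 organoids were not used here.

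Members, gene lists and classes were chosen with earlier results of these data known. Host cells were assigned to a class when at least 3 of its markers were detected and more than of any other class. UMIs were summed over cells of a library and scaled to CPM. List medians, 2-fold counts and the ranking by ratio were made after adding 1 CPM, for genes with at least 20 UMIs, and ratios printed for genes are of CPM with nothing added. Genes were named by these rules: the 8 genes of the rule, the 3 most abundant of each list, all transmitter genes with a UMI, and 15 genes by ratio. A few genes that these rules name are not reported here. Genes named between Agt-positive and Agt-negative cells, and others named for a zero, an exception or their behaviour, were chosen after their values were seen. Cells are not replicates, so genes were not tested. Intervals are exact Poisson or Clopper-Pearson at 95%, and cover counting error only. Library shares were compared by an exact permutation test. Host cells were clustered with scanpy 1.11.5 (2000 variable genes without the 8 genes of the rule, 30 components, resolution 1). No doublet caller was run, and cells with markers of other classes were left out as an alternative. Scripts were tested on simulated data.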

Additional observations from a re-analysis of the deposited data

Results flagged for a closer look

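In PFC_4MPT 94 of 691 barcodes of mixed species (20 to 80% human UMIs, over 500 mouse UMIs) had 3 or more of the 6 markers, a share of 13.6%. These barcodes lie outside both the host cells and the human cells and enter no comparison of shares. There were 1 of 412 in HIP_4MPT, 1 of 66 in PFC_2MPT and 0 of 248 in HIP_2MPT. In PFC_4MPT they held 14747 CPM of the 16 other astrocyte genes, close to the 14538 CPM of the host astrocytes, at a median of 1117 mouse UMIs. A count of host astrocytes with these barcodes added would thus be larger in PFC_4MPT than in the other libraries.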

How the results depend on the processing

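The number of host astrocytes was 190 and became 89 with under 10% human UMIs, 314 with 2 or more markers and 96 after host cells were thinned to 500 UMIs. Under the same settings their share in PFC_4MPT, 12.5%, became 8.64%, 14.7% and 6.66%. Leaving out each library in turn, chosen after seeing the data, moved the stage difference between -0.525 and 11.1 percentage points and the site difference between 1.86 and 11.9. It was -0.525 without PFC_4MPT, which sets HIP_4MPT against both libraries of 2 months and so mixes site with stage. With 2 or more markers HIP_4MPT (4.64%) stood above PFC_2MPT (4.53%), and p was 0.333 for stage and 0.667 for site. The HIP_4MPT cells with exactly 2 markers held 210 CPM of the 16 astrocyte genes, against 15766 CPM in its host astrocytes. Genes at least 2-fold higher than in other host cells numbered 1122 of 7619 (14.7%) rather than 1902 of 10901 (17.4%) when 50 UMIs were required, and genes lower numbered 1776 rather than 2767 with 10 CPM added. The median log2 ratio of the microglial list was 0.85 rather than -4.44 once the microglia class was left out of the other host cells, a setting added later that removes the cells in which these genes are high. Thinned to 500 UMIs, 0% of Agt-positive and 32.7% of Agt-negative cells had a telencephalic UMI, and 1.96% did in the Agt-led cluster put in place of Agt. That cluster merged with the other at a resolution of 0.5 and with another random seed. Of 168 list medians under 8 settings 165 kept their sign and 38 moved by over 0.5, leaving out the 2 cells of the Tmem212-led cluster being a setting added after seeing the data. Without the microglia class the median of the MHC class I list was -0.02 rather than -1.67, of the A1 list -0.64 rather than -2.09 and of the early genes -1.59 rather than -4.34. The comparison of PFC_4MPT with HIP_4MPT and the edgeR comparisons of stage and site were not run, with their alternatives, because 3 libraries held under 20 host astrocytes. With graft site as a replicate block the stage difference was 5.28 points, and with stage as a block the site difference was 6.87 points (exact p = 0.5 in both, the smallest possible), a pairing added after seeing the data. For genes without a UMI in host astrocytes of PFC_4MPT the limit was set at 3 UMIs, or 9.48 CPM.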

Other observations

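The human UMIs inside host astrocytes of PFC_4MPT were led by mitochondrial transcripts. MT-CO2 made up 4.80% of the human UMIs in host astrocytes, 4.51% in the other host cells and 1.48% in human barcodes. Human astrocyte genes were sparse there, with 1 UMI of AQP4, 0 of GJA1, 3 of SLC1A2 and 2 of GFAP, as they were in human barcodes, and the neuronal gene STMN2 made up 0.160% of human UMIs in host astrocytes and 0.152% in human barcodes. The mean number of human UMIs was 250 per host astrocyte and 273 per other host cell.

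Of the 150 host astrocytes of PFC_4MPT, 2 fell in a cluster led by Tmem212, Fam183b and other genes of ciliated ependymal cells, and 2 in a cluster led by cell cycle genes. Of the 29 cells with Gfap 13 also had Vim (44.8%), against 28.1% of the 121 without Gfap.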
